A study of Mus musculus with 8 samples.

Results

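Kupffer cells are the resident macrophages of the liver, and 10 genes that mark them were followed here in whole-liver RNA: Adgre1, Clec4f, Timd4, Vsig4, Cd5l, Marco, Cd163, Csf1r, Cd68 and Folr2. They were chosen by name, and all 10 were among the 25239 gene symbols counted in every liver. The livers came from adult male Smo flox/flox mice on a C57Bl6/J background, all fed for 6 weeks the CDA-HFD, a choline-deficient and amino acid-defined high-fat diet that induces steatohepatitis. In the last week each mouse received one adeno-associated virus of serotype 8 whose TBG promoter is active in hepatocytes. The 4 control mice received AAV8-TBG-Luciferase, so they carry the floxed alleles without Cre although their genotype label reads WT, and the 4 Smo-KO mice received AAV8-TBG-Cre Recombinase, which is meant to delete Smo in hepatocytes and not in macrophages. No group without the diet, without vector or without floxed alleles was analysed here. Between 8203299 and 9999732 reads per liver fell on genes. The hepatocyte gene Alb, which encodes albumin, lay between 14262 and 17680 CPM (read counts scaled to a common library size with TMM factors), the level of a dominant liver transcript.

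Kupffer cells line the sinusoids and clear bacteria, particles and dying cells from portal blood. They descend from embryonic precursors, renew themselves in place under CSF1 receptor signalling, and take their identity from signals of neighbouring endothelial and stellate cells. In steatohepatitis resident cells can be lost and replaced by macrophages derived from monocytes, which at first lack genes such as Timd4 and Clec4f. In RNA of whole liver, fewer Kupffer cells and less RNA per Kupffer cell cannot be told apart.

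Upstream sequence is shown first for the 5 genes that varied most closely with the other Kupffer cell genes from mouse to mouse, as described below. Each stretch ends just before the annotated start of the gene, runs 5′ to 3′ along the gene's own strand, and comes from RefSeq on assembly GRCm38.p6 (the submitters' processing notes name GRCm38). Capitals mark 2 short motifs, on either strand: GAGGAA (or TTCCTC), the core that the myeloid factor PU.1 prefers, and TGCTGA (or TCAGCA), the half-site of MAF factors. No 2 matches overlap.
Clec4f, chr6:83656188-83656366, minus strand: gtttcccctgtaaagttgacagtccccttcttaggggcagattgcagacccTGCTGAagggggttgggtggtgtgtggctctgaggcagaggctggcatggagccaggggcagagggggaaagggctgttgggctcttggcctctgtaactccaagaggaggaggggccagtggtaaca
Cd5l, chr3:87357631-87357880, plus strand: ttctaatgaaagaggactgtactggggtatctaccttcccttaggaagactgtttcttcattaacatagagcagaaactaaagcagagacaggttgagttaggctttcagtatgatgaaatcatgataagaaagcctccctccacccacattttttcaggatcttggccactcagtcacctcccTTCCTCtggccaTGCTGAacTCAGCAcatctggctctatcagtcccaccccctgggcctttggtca
Folr2, chr7:101857195-101857440, minus strand: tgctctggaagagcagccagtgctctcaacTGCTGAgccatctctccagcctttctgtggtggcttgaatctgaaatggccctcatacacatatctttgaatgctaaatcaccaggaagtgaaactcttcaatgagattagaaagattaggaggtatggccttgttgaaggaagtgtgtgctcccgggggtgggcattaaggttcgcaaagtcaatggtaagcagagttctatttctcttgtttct
Vsig4, chrX:96293439-96293688, minus strand: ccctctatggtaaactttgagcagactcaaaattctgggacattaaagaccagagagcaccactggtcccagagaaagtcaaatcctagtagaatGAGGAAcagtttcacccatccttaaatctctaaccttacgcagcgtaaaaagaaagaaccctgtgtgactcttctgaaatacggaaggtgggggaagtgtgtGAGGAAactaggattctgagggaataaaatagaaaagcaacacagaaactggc
Timd4, chr11:46810549-46810798, plus strand: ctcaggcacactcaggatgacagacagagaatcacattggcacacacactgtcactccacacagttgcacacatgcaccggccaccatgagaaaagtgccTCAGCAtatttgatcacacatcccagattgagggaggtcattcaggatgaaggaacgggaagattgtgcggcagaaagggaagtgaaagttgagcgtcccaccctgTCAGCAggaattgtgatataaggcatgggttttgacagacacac
The stretches of Clec4f (179 bases) and Folr2 (246 bases) are shorter than the others (250 bases) because transcribed bases were left out where annotated starts differ. No such stretch was found for Adgre1, and Csf1r was left out before motifs were counted. Of the 8 other Kupffer cell genes, 4 held GAGGAA or TTCCTC (Vsig4, Cd5l, Marco and Cd68) and 4 held TGCTGA or TCAGCA (Clec4f, Timd4, Cd5l and Folr2). Over the 250 bases before the start in all 32851 promoters, the shares were 23.3% and 16.1%. A match describes letters and no binding was measured.

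Smo itself separated the groups. It was 8.17, 8.49, 8.74 and 8.21 CPM in controls 1 to 4 and 5.67, 3.93, 4.27 and 4.37 CPM in livers 1 to 4 of the Smo-KO group, without overlap and with a log2 fold change of -0.88 (standard error 0.16, written SE from here on, edgeR adjusted p = 0.0957). The p comes from the quasi-likelihood test of edgeR over 12977 genes with Benjamini-Hochberg adjustment, which was also used for the Kupffer cell genes, all 10 of which passed its filter on low counts.

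None of the Kupffer cell genes differed between control and Smo-KO livers beyond the spread between mice. In edgeR's test 0 of the 10 had an adjusted p under 0.05, against 0 of 12977 genes (0%), and 0 of the 10 had an unadjusted p under 0.05, against 13.8% of all genes. DESeq2's Wald test also gave 0 of 10 at either threshold, against 1.29% and 12.5% of all genes. The ranges of the 2 groups overlapped in all 10 genes. Over all genes tested they did not overlap in 7.37%. For only 10 genes that vary together, a count of 0 is near each of these shares. Of the 10 log2 fold changes 4 were above and 6 below 0, their median was -0.06, and the median over all genes was -0.00084. The lowest unadjusted p among the 10 was 0.236, for Csf1r. With 4 mice per group an absent call does not show equality, so the 95% interval of each fold change is given below. For 6 of the 10 genes it lay within 1.5-fold in both directions, and for 9 within 2-fold.

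**Figure D1:**
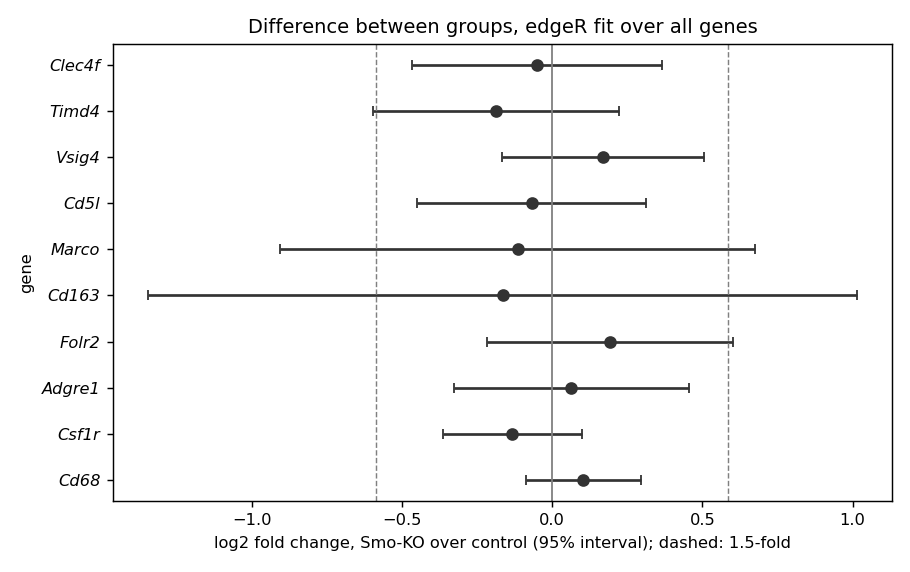
Log2 fold change (x axis, Smo-KO over control, 4 mice each) of the 10 Kupffer cell genes (y axis), with points for edgeR's estimates and bars for 95% intervals; dashed lines stand at 1.5-fold. Every interval includes 0, and those of Cd163, Marco, Timd4 and Folr2 reach past a dashed line.

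Among the genes most particular to resident cells is Clec4f, a C-type lectin receptor that in the mouse liver marks Kupffer cells. Clec4f was 342, 244, 418 and 338 CPM in the controls, mice 1 to 4 in order, and 452, 251, 253 and 340 CPM in the Smo-KO mice, likewise ordered. Control mouse 2 and Smo-KO mice 2 and 3 were low, control mouse 3 and Smo-KO mouse 1 were high, and the groups overlapped almost entirely. The means were 336 ± 71.0 and 324 ± 94.9 CPM (SD, n = 4 each), with a log2 fold change of -0.05 (SE 0.19, edgeR adjusted p = 0.938). The interval runs from 1.38-fold lower to 1.29-fold higher in Smo-KO livers.
Timd4 encodes TIM-4, a receptor for phosphatidylserine on dying cells that long-resident Kupffer cells carry. Its values were 29.1, 23.2, 35.2 and 31.7 CPM in control mice and 37.9, 19.3, 22.6 and 24.7 CPM in Smo-KO mice. Apart from Smo-KO mouse 1, which was the highest of all 8, the Smo-KO mice lay below the middle of the control range. The log2 fold change was -0.19 (SE 0.19, edgeR adjusted p = 0.704), with an interval from 1.51-fold lower to 1.17-fold higher. Leaving out each mouse in turn moved it from -0.42 (without Smo-KO mouse 1, edgeR adjusted p = 0.178) to -0.065 (without Smo-KO mouse 2).

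Vsig4, the complement receptor of the immunoglobulin family that captures opsonized particles, was 83.5, 60.6, 105 and 94.96 CPM in control mice and 116, 83.0, 87.8 and 99.9 CPM in Smo-KO mice. Only control mouse 2 lay below all Smo-KO mice. Its log2 fold change was 0.17 (SE 0.16, edgeR adjusted p = 0.663), with an interval from 1.12-fold lower to 1.42-fold higher.
Folr2, which encodes folate receptor beta of resident macrophages, was 62.9, 43.3, 66.2 and 59.8 CPM in control mice and 95.1, 51.4, 51.8 and 67.1 CPM in Smo-KO mice. Smo-KO mouse 1 stood above the other 7 livers, and control mouse 2 was the lowest. The log2 fold change was 0.19 (SE 0.19, edgeR adjusted p = 0.690; interval from 1.16-fold lower to 1.52-fold higher), and without Smo-KO mouse 1 it was -0.03. Exons of Folr2 overlap those of Gm10602 on the opposite strand in GENCODE M21, and whether the counting used strand is not given in the sources used here.

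Of the scavenger receptor family, Cd5l was the most abundant. It encodes a secreted protein, also called AIM, that circulates with IgM and binds lipids and cell debris. Cd5l was 503, 466, 766 and 624 CPM in control mice and 740, 436, 499.9 and 574 CPM in Smo-KO mice. Control mouse 3 and Smo-KO mouse 1 were high in their groups, and the 2 ranges nearly coincided. The means were 590 ± 136 and 563 ± 131 CPM (SD, n = 4 each), with a log2 fold change of -0.07 (SE 0.18, edgeR adjusted p = 0.899) and an interval from 1.36-fold lower to 1.24-fold higher.
Marco, a receptor for bacteria and particles with a collagenous stalk, was 25.97, 10.3, 20.1 and 49.3 CPM in control mice and 36.4, 17.8, 18.2 and 25.1 CPM in Smo-KO mice. Both its highest and its lowest liver were controls, 4.79-fold apart. The log2 fold change was -0.11 (SE 0.37, edgeR adjusted p = 0.921), and its interval, from 1.87-fold lower to 1.597-fold higher, leaves moderate differences undetectable at this number of mice.
Cd163, the receptor that takes up complexes of hemoglobin and haptoglobin, had 24, 3, 16 and 31 reads in control mice and 29, 6, 7 and 21 reads in Smo-KO mice. The 2 ranges overlapped almost entirely. Its log2 fold change, -0.16 (SE 0.55, edgeR adjusted p = 0.923), had the widest interval of the 10, from 2.54-fold lower to 2.02-fold higher. The coefficient of variation of Cd163 was 61.2% over the 8 livers, where its read counts alone give 24.2%. In control mouse 2 its 3 reads correspond to 0.315 CPM.

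The remaining genes are shared with other macrophages. Adgre1 encodes F4/80, the antigen by which mouse macrophages are commonly stained. It was 34.0, 48.3, 72.7 and 47.2 CPM in control mice and 61.3, 51.3, 50.4 and 48.6 CPM in Smo-KO mice, so the Smo-KO values fell inside a wider control range. The means were 50.6 ± 16.1 and 52.9 ± 5.74 CPM (SD, n = 4 each), with a log2 fold change of 0.06 (SE 0.18, edgeR adjusted p = 0.912) and an interval from 1.25-fold lower to 1.37-fold higher.
Csf1r, the receptor for the macrophage growth factors CSF1 and IL-34, was 217, 197, 242 and 216 CPM in control mice and 238, 175, 194 and 189 CPM in Smo-KO mice. Smo-KO mice 2, 3 and 4 lay below every control, and Smo-KO mouse 1 lay near the top of the control range. The log2 fold change was -0.13 (SE 0.11, edgeR adjusted p = 0.613), with an interval from 1.29-fold lower to 1.07-fold higher. Without Smo-KO mouse 1 the groups did not overlap in Csf1r, as was also the case in 16% of all genes tested in that fit. Its exons overlap those of Hmgxb3 on the opposite strand.
Cd68 encodes a glycoprotein of macrophage lysosomes and varied least. It was 95.3, 87.5, 88.1 and 94.96 CPM in control mice and 99.1, 88.0, 110 and 96.4 CPM in Smo-KO mice. The log2 fold change was 0.10 (SE 0.09, edgeR adjusted p = 0.641), with the narrowest interval of the 10, from 1.06-fold lower to 1.23-fold higher. Smo-KO mouse 3, low in most genes of resident cells, had the highest Cd68.

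**Figure D2:**
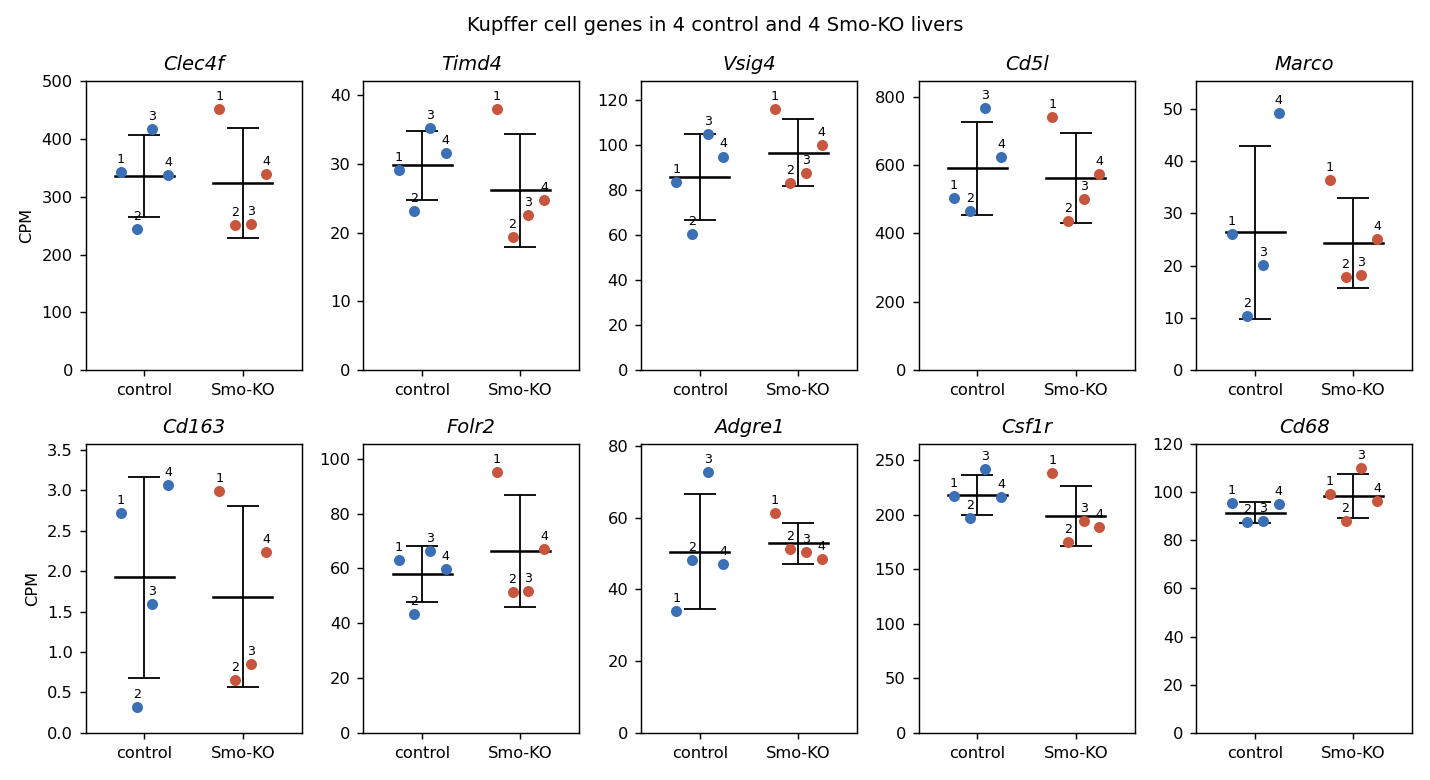
CPM (y axis, from 0, a scale of its own in each panel) of the 10 Kupffer cell genes in control (blue) and Smo-KO (red) livers; each point is 1 mouse with its number, long bars are means and whiskers 1 SD (n = 4). The groups overlap in every panel, and mouse 1 of the Smo-KO group is at or near the top in most.

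Levels between genes were compared per kilobase of the longest GENCODE M21 transcript of each gene. By this scale Cd5l was the highest (283 ± 61.1 CPM per kb, SD over 8 livers), followed by Clec4f (133 ± 31.5), Cd68 (77.2 ± 6.11), Vsig4 (63.8 ± 11.7), Folr2 (51.66 ± 12.97), Csf1r (44.3 ± 5.06), Adgre1 (16.0 ± 3.48), Marco (13.2 ± 6.39), Timd4 (12.9 ± 3.03) and Cd163 (0.406 ± 0.248). Cd5l exceeded Clec4f, and Clec4f exceeded Cd68, in 8 of 8 livers, as Vsig4 did Folr2, Csf1r did Adgre1 and Timd4 did Cd163. Cd68 exceeded Vsig4 in 6, Folr2 exceeded Csf1r in 7, Adgre1 exceeded Marco in 6 and Marco exceeded Timd4 in 5 of 8 livers, so the order of these neighbours is not firm. On GRCm38 the most abundant, Cd5l, spans chr3:87357881-87371073 on the plus strand with 6 exons, and Clec4f spans chr6:83644542-83656187 on the minus strand with 7 exons. The least abundant, Cd163, spans chr6:124304656-124330527 on the plus strand with 17 exons. Adgre1 (chr17:57358691-57483527, plus strand, 22 exons) has the longest locus.

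In the mean level of these genes, differences between mice within a group were larger than that between the groups. Averaged over the 10 genes, log2 CPM was 5.99 ± 0.347 in control livers and 5.99 ± 0.341 in Smo-KO ones (SD, n = 4 each). The summed level was 1396, 1181, 1815 and 1559 CPM in control mice and 1879, 1173, 1289 and 1467 CPM in Smo-KO mice, so each group held a liver near the top and one near the bottom. The difference between group means made up a median of 5.10% of the squared deviations in log2 CPM of these genes. It ran from 0.086% for Marco to 23.8% for Cd68, and the median over all genes tested was 14.6%. Some such share also arises without any effect of genotype. The coefficient of variation over the 8 livers was 23.6% for Clec4f and 21.6% for Cd5l, while their read counts alone give 1.79% and 1.35%. Of the 7148 genes with a mean from 20 to 700 CPM, the median coefficient of variation was 10.8% and the 90th percentile was 19.6%. Of the 9 Kupffer cell genes in this range, 8 lay above that median and 6 above that percentile.
The same mice were high or low in most of these genes. Relative to each gene's mean over the 8 livers, Smo-KO mouse 1 was higher in 10 of 10 genes and control mouse 2 in 0 of 10. Smo-KO mice 2 and 3 were higher in 1 of 10 each, control mice 3 and 4 in 8 each, and control mouse 1 and Smo-KO mouse 4 in 7 each. The lowest value was in control mouse 2 for 6 genes, in Smo-KO mouse 2 for 3 and in control mouse 1 for Adgre1. No batch is given in the labels. Reads on genes were 9177277, 9394970, 9891102 and 9999732 in control mice and 9543675, 9367795, 8203299 and 9445427 in Smo-KO mice, and the part of library size in this order was not tested.

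**Figure D3:**
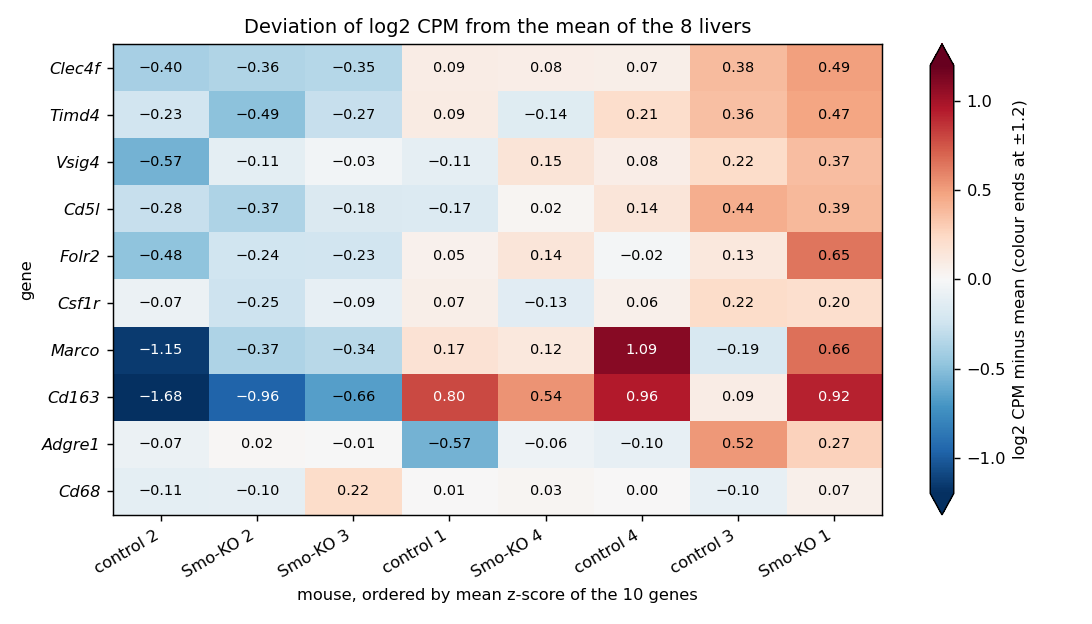
Log2 CPM of each Kupffer cell gene (rows) in each liver (columns) minus the gene's mean over the 8 livers, in log2 units by colour and number; mice are ordered by the mean z-score of the 10 genes. Control 2 and Smo-KO 2 stand at the low end and control 3 and Smo-KO 1 at the high end, so both groups are spread along the order, and Adgre1 and Cd68 follow it least.

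Pearson and Spearman correlations over the 8 livers describe this shared variation; all values share the TMM scaling, and no p is given because the genes were chosen as a set. Each gene was compared with the mean z-score of the other 9. The correlation was r = 0.926 (rho = 0.905) for Clec4f, 0.908 (0.952) for Cd5l, 0.893 (0.881) for Folr2, 0.878 (0.952) for Vsig4 and 0.877 (0.905) for Timd4. It was lower for Cd163 (r = 0.793, rho = 0.786), Csf1r (0.757, 0.690) and Marco (0.701, 0.786), and lowest for Adgre1 (0.309, 0.310) and Cd68 (0.152, 0.429). With the group means removed, r was 0.938 for Clec4f, 0.969 for Timd4 and 0.903 for Csf1r. Without the 2 livers farthest from the median, control mouse 2 and Smo-KO mouse 1, r was between 0.739 and 0.928 for the 5 closest genes, 0.815 for Csf1r, 0.617 for Cd163 and 0.387 for Marco, so the relation of Marco rests in large part on these livers. Without them r was 0.135 for Adgre1 and -0.30 for Cd68. Of the 45 pairs of genes 42 had r above 0 and 18 above 0.7, and the closest pair was Timd4 with Csf1r (r = 0.966, rho = 0.881).
The 7 genes of resident cells (Clec4f, Timd4, Vsig4, Cd5l, Marco, Cd163 and Folr2) also varied relative to the 3 shared with other macrophages, again without a difference between groups beyond their spread. Their summed CPM was 3.03, 2.55, 3.51 and 3.35 times that of Adgre1, Csf1r and Cd68 in control mice, and 3.72, 2.74, 2.64 and 3.40 times in Smo-KO mice. Cd5l and Clec4f made up most of the resident sum and Csf1r most of the other, so the ratio mainly compares these genes. The means of the ratio were 3.11 ± 0.425 and 3.12 ± 0.522 (SD, n = 4 each), a difference of 0.013 that ran from -0.186 (without Smo-KO mouse 1) to 0.176 (without Smo-KO mouse 3) as single mice were left out.

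Of all other genes tested, the one closest to the mean z-score of the Kupffer cell genes was Gdf2, which encodes BMP9, a ligand made by hepatic stellate cells that acts on sinusoidal endothelium and Kupffer cells. Gdf2 was 38.2, 28.6, 38.9 and 39.8 CPM in control mice and 45.5, 29.6, 34.9 and 35.9 CPM in Smo-KO mice. The same mice, control mouse 2 and Smo-KO mouse 2, were the lowest in Gdf2 and in the Kupffer cell genes, and Smo-KO mouse 1 was the highest in both. Over the 8 livers r was 0.970 (rho = 0.952), and 0.916 without control mouse 2 and Smo-KO mouse 1. Its log2 fold change between groups was 0.0044 (SE 0.14, edgeR adjusted p = 0.994). The next 9 genes were Adgrg3, Dok2, Pck2, Taf9b, Afap1l1, Tmem86a, Ccr3, Prxl2c and Rnf225, with r from 0.940 to 0.919. This order is a description of 8 livers, picked from all genes tested, and carries no test.

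Signals of the Kupffer cell niche, Gdf2 among them, are made by cells around the sinusoid. Of 9 genes listed for the niche, which include the receptor gene Acvrl1 beside the signals, 7 were tested. Of these, 0 had an unadjusted p under 0.05 in edgeR's test, against 13.8% of all genes (3 higher, 4 lower, median log2 fold change -0.03). Tgfb1, the most abundant of them, was 50.4 ± 4.59 and 49.5 ± 5.06 CPM in control and Smo-KO livers. Csf1, the main growth factor of macrophages, was 38.4 ± 5.79 CPM in control livers and 35.8 ± 8.03 CPM in Smo-KO ones (SD, n = 4 each), and Il34, the other ligand of Csf1r, was 8.70 ± 2.11 and 10.1 ± 1.11 CPM. Dll4, the Notch ligand of endothelium, was 3.56 ± 0.539 and 3.48 ± 1.71 CPM. Csf2 had 0 reads in all livers, and Bmp10 had at most 4.
Transcription factors of Kupffer cells had 0 of 12 genes at an unadjusted p under 0.05, against 13.8% of all genes (6 higher, 6 lower, median log2 fold change 0.02). Several of them are also active in other liver cells. Rxra, a nuclear receptor partner and the most abundant of the 12, was 472 ± 42.8 and 490 ± 59.2 CPM, and Maf was 49.2 ± 4.82 and 54.7 ± 4.35 CPM. Nr1h3, which encodes LXR alpha, was 219 ± 9.53 CPM in control livers and 227 ± 11.8 CPM in Smo-KO ones (SD, n = 4 each), and Spi1, which encodes PU.1, was 71.2 ± 4.37 and 70.3 ± 8.33 CPM. Spic, a factor of iron-recycling macrophages, was 9.75, 6.08, 9.74 and 9.69 CPM in control mice and 8.87, 4.58, 4.88 and 9.27 CPM in Smo-KO mice, low in the mice that were low in Clec4f. Its log2 fold change was -0.35 (SE 0.25, edgeR adjusted p = 0.560).
A further 12 genes that Kupffer cells express were listed, among them some that other liver cells share. Of these, 11 were tested, 0 had an adjusted p under 0.05 and 1, Il18bp, had an unadjusted p under 0.05, a share near the 13.8% of all genes (5 higher, 6 lower, median log2 fold change -0.02). Il18bp, which encodes a secreted inhibitor of IL-18, was 57.8, 60.8, 71.9 and 75.1 CPM in control mice and 53.7, 42.4, 50.2 and 48.0 CPM in Smo-KO mice, without overlap, as in 7.37% of all genes (log2 fold change -0.45, SE 0.11, edgeR adjusted p = 0.146). Clec1b was 35.1 ± 8.34 and 32.0 ± 6.46 CPM, and Slc40a1, the iron exporter ferroportin, was 299 ± 58.5 and 287 ± 30.2 CPM. The complement genes C1qa, C1qb (the most abundant of the list) and C1qc had log2 fold changes of 0.15, 0.16 and 0.09. Stab1, a scavenger receptor that endothelium shares, was 68.8 ± 5.04 and 84.3 ± 18.9 CPM.
Receptors and bridging proteins for the uptake of dying cells and lipoproteins had 0 of 10 genes at an unadjusted p under 0.05, against 13.8% of all genes (7 higher, 3 lower, median log2 fold change 0.09). Lrp1, the most abundant, was 749 ± 54.0 and 788 ± 72.7 CPM. Mfge8, which bridges dying cells to phagocytes, was 57.6 ± 9.42 and 69.7 ± 10.5 CPM, and Stab2, which sinusoidal endothelium expresses, was 34.8 ± 2.57 and 32.4 ± 7.91 CPM. Mertk was 40.9 ± 1.84 CPM in control and 41.9 ± 4.55 CPM in Smo-KO livers, and Msr1 was 85.4 ± 15.1 and 99.9 ± 8.68 CPM (SD, n = 4 each).

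**Figure D4:**
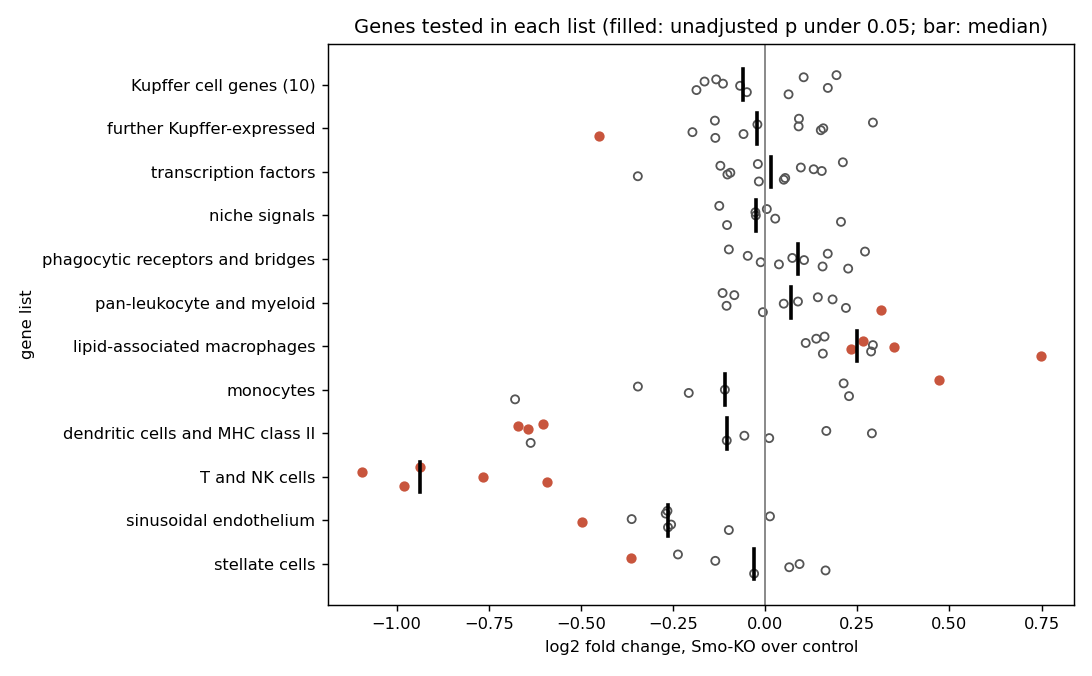
Log2 fold change (x axis, Smo-KO over control) of every tested gene in 12 gene lists (y axis); filled points have an unadjusted p under 0.05 in edgeR's test and black bars are list medians. The median of the 10 Kupffer cell genes is -0.06 with no filled point, while those of lipid-associated macrophages and of T and NK cells are 0.25 and -0.94.

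Other cells of the liver were followed by their own markers. None of these passed edgeR's test after adjustment, and neither did any other of the 12977 genes tested. Markers of lipid-associated macrophages, which accumulate in steatohepatitis and include Trem2, had 4 of 10 genes at an unadjusted p under 0.05, all 4 higher in Smo-KO livers, and 10 of 10 log2 fold changes above 0. Over all genes tested 13.8% had such a p in either direction. Their summed level was 1242 ± 69.5 CPM in control livers and 1469 ± 122 CPM in Smo-KO ones (SD, n = 4 each). Trem2 was a small part of this sum, and the number of these cells was not measured. Trem2, a lipid receptor, was 29.8 to 36.2 CPM in control mice and 43.9 to 66.5 CPM in Smo-KO mice (log2 fold change 0.75, edgeR adjusted p = 0.0957). Lpl, lipoprotein lipase and the most abundant of the list, was 258 ± 33.7 and 329 ± 33.0 CPM (log2 fold change 0.35, edgeR adjusted p = 0.216). The mean z-score of the list had an r of -0.15 with that of the Kupffer cell genes over the 8 livers, -0.26 with the group means removed and -0.44 without control mouse 2 and Smo-KO mouse 1. That these 2 sets of macrophage genes differed in their response was not tested.
Lyz2, the lysozyme of all myeloid cells, was the 1 of 10 pan-leukocyte and myeloid genes with an unadjusted p under 0.05, a share near the 13.8% of all genes. It was 412 ± 37.9 CPM in control livers and 512 ± 48.8 CPM in Smo-KO ones (SD, n = 4 each; log2 fold change 0.31, edgeR adjusted p = 0.219). Ptprc, the antigen CD45 of all leukocytes, was 66.31 ± 13.01 and 66.1 ± 7.09 CPM. Itgb2, the integrin beta chain of leukocytes, was 73.6 ± 6.37 and 68.5 ± 5.11 CPM. Of 7 monocyte genes (3 higher, 4 lower) only Cx3cr1 had an unadjusted p under 0.05, a share near that of all genes (log2 fold change 0.47, edgeR adjusted p = 0.266), and their summed level was 124 ± 32.9 and 127 ± 23.9 CPM. Plac8, the most abundant of them, was 62.02 ± 18.6 and 57.6 ± 11.03 CPM, and Ly6c2, a marker of inflammatory monocytes, was 8.76 ± 4.28 and 5.50 ± 2.07 CPM.
Genes of MHC class II, which Kupffer cells share with dendritic and B cells, had lower means in Smo-KO livers without an adjusted p under 0.05. H2-Aa was 324, 354, 396 and 473 CPM in control mice and 235, 219, 324 and 212 CPM in Smo-KO mice (log2 fold change -0.64, edgeR adjusted p = 0.133). Only Smo-KO mouse 3 reached the control range. H2-Aa, H2-Ab1 and H2-Eb1 were the 3 of 9 genes of the dendritic cell list at an unadjusted p under 0.05, against 13.8% of all genes, and H2-Eb1 was the most abundant (450 ± 67.4 and 296 ± 66.8 CPM). The summed level of the list, nearly all of it from these 3 genes, was 1217 ± 192 and 790 ± 173 CPM (SD, 4 mice each). Of the 9 genes 3 were higher and 6 lower, and outside MHC class II the log2 fold changes went both ways, from -0.64 for Xcr1 to 0.29 for Siglech, with none at an unadjusted p under 0.05. All 5 T and NK cell genes tested, of 8 listed, were lower at an unadjusted p under 0.05, against 13.8% of all genes in either direction, with a median log2 fold change of -0.94 and a summed level of 41.1 ± 5.80 and 22.6 ± 6.07 CPM. Klrb1c, Ncr1 and Gzma did not pass the filter on low counts, and Klrb1c was listed at 0.181 and 0.190 CPM. Nkg7 was the most abundant (14.5 ± 3.09 and 7.59 ± 2.44 CPM), and Cd8a, a coreceptor of cytotoxic T cells, had the lowest p of the list (9.87 ± 0.756 and 5.80 ± 1.09 CPM, edgeR adjusted p = 0.116).
Markers of sinusoidal endothelium, whose cells adjoin Kupffer cells, varied along the same order of mice. Their summed level was 222, 214, 261 and 264 CPM in control mice and 284, 136, 178 and 225 CPM in Smo-KO mice, with Smo-KO mouse 1 the highest and Smo-KO mice 2 and 3 the lowest. Clec4g was the most abundant of the 8, and none was at 0. Their mean z-score had an r of 0.783 (rho = 0.905) with that of the Kupffer cell genes, 0.874 with the group means removed and 0.971 without control mouse 2 and Smo-KO mouse 1. Among other lists r was 0.763 for the further Kupffer cell genes, 0.704 for the niche genes and 0.639 for the transcription factors. Without control mouse 2 and Smo-KO mouse 1 it was 0.782, 0.896 and 0.599 in the same order. For stellate cell markers r was 0.459 (rho = 0.476), for hepatocyte markers 0.221 (0.286), and for the pan-leukocyte and myeloid genes 0.098 (0.095). Without control mouse 2 and Smo-KO mouse 1 these were 0.783 for stellate cells, 0.061 for hepatocytes and 0.202 for the pan-leukocyte and myeloid genes, and r for T and NK cells was 0.788 against -0.014 with all 8 livers, so over these 6 livers the high value was not confined to endothelium. The part of the sampled tissue or of cell number in this shared order was not tested. Between groups 1 of the 8 endothelial genes was higher and 7 were lower, with a median log2 fold change of -0.26 against -0.00084 over all genes. Of them 1, Pecam1, had an unadjusted p under 0.05, a share near the 13.8% of all genes (log2 fold change -0.50, edgeR adjusted p = 0.292), the 1 higher gene was Fcgr2b (log2 fold change 0.013), and the summed level was 240 ± 25.9 and 206 ± 63.3 CPM.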

How the data were processed

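RNA of 8 livers was sequenced by the authors from Illumina libraries (NEBNext Ultra RNA kit, NovaSeq). The deposited files hold raw counts, whole numbers of reads per gene symbol, 1 file per liver. The submitters' processing notes name fastp, STAR 2.7.5, featureCounts 2.0.1 and GRCm38; the last entries of each file, which name no gene, have the form of htseq-count output. The annotation and the strand setting are not given in the sources used here. Reads on no feature were 7.56% to 9.68% and ambiguous reads 2.45% to 2.61% of all counted; neither entered library sizes or tests.

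Counts were analysed in R 4.3.3 using the quasi-likelihood test of edgeR 4.0.16, with TMM factors, filterByExpr and genotype as the only term. Standard errors and 95% intervals follow from the F statistic. Log2 CPM used a prior count of 2. DESeq2 1.42.0 was an alternative. The edgeR test was checked on simulated counts. Figures used matplotlib 3.10.9. Labels do not say that mice with the same number are paired. Chi-square per degree of freedom between livers of a group was 7.76 to 17.5, so no livers of the same group were copies. Livers of different groups were not compared in this way. At this depth 3 reads are 0.297 to 0.366 CPM. The variation that read counts alone give covers counting error only. The 95% intervals of fold changes include the spread between mice.

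The Kupffer cell genes and all lists were chosen with earlier results of these data known. Named genes were the 10 Kupffer cell genes, Smo, of each list the most abundant gene, the lowest p in each direction and those at 0, and the 10 genes with the highest r; other listed genes are named with their values. Alternatives were RLE factors, library size alone, DESeq2, 2 other filters, the replicate number as a block, another prior count and leaving out each mouse. An exact permutation test of each list's summed CPM was run but is not reported, since after adjustment over 15 lists the smallest p it gave was 0.214. For the correlations, removing the group means and leaving out the 2 livers farthest from the median were added after the data were seen.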

Additional observations from a re-analysis of the deposited data

How the results depend on the processing

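Under every alternative (RLE size factors, library size alone, DESeq2, the replicate number as a block, no filter, a minimum of 10 counts per sample, and each mouse left out) the number of Kupffer cell genes with an adjusted p under 0.05 was 0, with a lowest adjusted p of 0.178 for Timd4 without Smo-KO mouse 1. Cd163 was not tested with the minimum of 10 counts per sample. Over all genes the number with an adjusted p under 0.05 was also 0 with RLE size factors, library size alone and that minimum. It was also 0 without control mouse 2, 3 or 4 and without Smo-KO mouse 2 or 4. Under these settings a 0 among the Kupffer cell genes was therefore fixed. Of 139 log2 fold changes of single genes, 125 kept their direction and 14, all from leaving out a mouse, changed it. Leaving out each mouse in turn gave log2 fold changes from -0.084 to 0.296 for Adgre1, from -0.248 to 0.076 for Clec4f, from -0.223 to 0.087 for Cd5l, from -0.38 to 0.39 for Marco, from -0.59 to 0.17 for Cd163 and from -0.027 to 0.299 for Folr2. The range was 0.04 to 0.28 for Vsig4, -0.22 to -0.08 for Csf1r, 0.05 to 0.15 for Cd68 and -0.42 to -0.065 for Timd4, with no change of direction. The median over the 10 genes then ran from -0.22 to 0.08. The number of Kupffer cell genes whose groups did not overlap ran from 0 to 1: Adgre1 without control mouse 3, Csf1r without Smo-KO mouse 1 and Cd68 without Smo-KO mouse 2, against 9.55%, 16% and 11.5% of all genes in those fits.

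Over all genes, the number with an adjusted p under 0.05 was 0 in the main test, 167 with DESeq2, 61 with no filter and 8 with the replicate block, and from 0 to 78 with each mouse left out (5 without control mouse 1, 78 without Smo-KO mouse 1, 4 without Smo-KO mouse 3). Deviations of same-numbered mice had correlations from 0.061 to 0.187, and 5 of 8 mice correlated best with their own number. The causes were not tested. For all 10 Kupffer cell genes the coefficient of variation over livers exceeded that of counting alone. This sets separate mice against counting error only, so it says nothing particular about these genes.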

Other observations

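Markers of cell types not described above gave these values, beside 13.8% of all genes at an unadjusted p under 0.05. Of 8 neutrophil genes 3 passed the filter on low counts, 0 of them at an unadjusted p under 0.05 in edgeR's test, with a summed level of 23.9 ± 6.09 CPM in control livers and 24.9 ± 2.69 CPM in Smo-KO ones (SD, n = 4 each); Ly6g had 0 reads in every liver. Csf3r was the most abundant of them (12.4 ± 2.87 and 14.4 ± 2.26 CPM), and S100a9 was 5.72 ± 2.01 and 5.19 ± 0.394 CPM. The 4 B cell genes found in the files summed to 8.77 ± 0.952 and 8.97 ± 1.78 CPM, and the 5 cholangiocyte genes to 23.9 ± 4.21 and 25.0 ± 5.85 CPM, each with 0 genes at an unadjusted p under 0.05 in edgeR's test. Cd79b was 3.098 ± 0.935 and 3.51 ± 0.944 CPM and Ms4a1 1.18 ± 0.609 and 1.03 ± 0.310 CPM among B cell genes, and Sox9 was 11.86 ± 1.201 and 10.4 ± 2.26 CPM and Epcam 5.03 ± 1.52 and 6.72 ± 1.82 CPM among cholangiocyte genes. Of 7 stellate cell genes 1, Col1a1, had an unadjusted p under 0.05 (log2 fold change -0.36, edgeR adjusted p = 0.248), and of 7 hepatocyte genes 1, Cps1, the first enzyme of the urea cycle (log2 fold change -0.33, adjusted p = 0.218). Dcn, the most abundant stellate cell gene, was 292 ± 31.98 and 305 ± 44.9 CPM, Reln 77.1 ± 10.7 and 86.4 ± 5.23 CPM, and the hepatocyte gene Serpina1a, whose near-identical copies make its counts uncertain, 736 ± 106 and 853 ± 107 CPM.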
